A study of Mus musculus with 4 samples.

Results

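T cell cytokines of effector and regulatory function were followed through tumor-infiltrating cells of WT mice and of mice whose T cells lack VISTA. The set held 10 of the 32285 genes in the tables, taken by symbol, namely Ifng, Tnf, Lta, Ltb, Il2, Il21, Il10, Csf2, Csf1 and Il16. All 10 were found in both libraries. VISTA is an inhibitory receptor of the B7 family encoded by Vsir. Both groups were Vsir fl/fl mice on the C57BL/6 background, matched for sex and age. The methods give an age of 6 to 8 weeks for C57BL/6 mice in the survey of tumor models, and none for these groups by name. VISTA-KO mice carried CD4-Cre, which acts in developing thymocytes and so deletes the gene in CD4+ and CD8+ T cells alike, and WT mice were littermates without Cre. Both groups bore B16 melanoma, a transplantable mouse tumor, received on day 3 a vaccine of a mutated TRP2 peptide with the Toll-like receptor agonists CpG and R848, and were given 100 µg of a CTLA-4-blocking antibody, clone 9H10, on days 4 and 8. CD4+ and CD8+ cells were isolated 18 days after treatment and sorted together. Tumors were pooled, which gave 1 library per genotype, and pools were described as 5 to 6 mice in one place and as 6 to 8 tumors in another. The comparison between genotypes therefore had no replicates, and no test of it was made.

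T cells make these proteins in small amounts at rest and in bursts once the antigen receptor is engaged. Ifng encodes interferon-gamma, which activates macrophages and induces antigen presentation. Tnf, Lta and Ltb encode members of the tumor necrosis factor family. Il2 encodes the growth factor of T cells, on which regulatory T cells depend without making it themselves. Il21 is a product of follicular helper T cells, and Il10 encodes an inhibitory cytokine of regulatory and activated T cells. Csf2 and Csf1 encode growth factors of granulocytes and macrophages. Il16 encodes a precursor that many lymphocytes hold without stimulation and that is cleaved to a chemoattractant for CD4+ cells. Transcripts of several of these genes are short-lived, so a single time point shows cells that carried RNA when they were isolated.

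Each value is a count of unique molecular identifiers (UMIs), the distinct RNA molecules read from a cell. After filtering, 10224 WT and 9946 VISTA-KO cells remained, and 144 barcodes occurred in both libraries, which the tables cannot tell from chance reuse of barcodes. CD8 cells were those with Cd8a or Cd8b1 but without Cd4 UMIs, and numbered 5482 in WT and 4301 in VISTA-KO. Conventional CD4 cells had a Cd4 UMI and no Foxp3 UMI, and numbered 1661 and 2983. Regulatory cells had UMIs of both Foxp3 and Cd4, and numbered 1491 and 1260. Cells with at least 2 Siglech UMIs, 221 and 138, were taken out of these classes. The remaining 1369 and 1264 cells fell in no class. Median UMIs per cell were 4819 and 5196 in CD8 cells, 3922 and 4192 in conventional CD4 cells, 9181 and 9485.5 in Siglech cells, but 8739 in WT and 5908 in VISTA-KO regulatory cells. Levels are counts per 1000000 UMIs of a class (CPM), with exact 95% Poisson intervals. A summed level cannot tell fewer cells with a transcript from less of it per cell, and the share of positive cells is therefore given beside it. Shares of cells with a UMI were taken after each cell was thinned to 2000 UMIs, with exact 95% binomial (Clopper-Pearson) intervals. All intervals cover counting error only, and in a pair of values the WT value comes first. They treat UMIs as independent, although 1 cell can hold many. Thinned shares come from 1 random draw of UMIs, and another draw moved some of them.

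The class rules were set against marker genes. Foxp3, the factor that defines regulatory T cells, lay at 495 CPM for WT and 614 CPM for VISTA-KO regulatory cells, and at 37.4 and 19.9 CPM in CD8 cells. Regulatory cells were not clean of CD8 RNA, since 759 of 1491 WT and 367 of 1260 VISTA-KO cells had a Cd8a or Cd8b1 UMI, and 497 of 1661 and 587 of 2983 conventional CD4 cells had one. Cells with 2 or more T cell receptor beta chains, a sign of doublets, made up 7.65% and 11.4% of regulatory cells and 2.85% and 5.09% of CD8 cells. These are shares of all cells, with or without a recovered receptor. A paired alpha and beta chain was found in 756 of 1491 WT and 915 of 1260 VISTA-KO regulatory cells. The regulatory shares therefore do not compare doublets between the libraries. The 7 markers of plasmacytoid dendritic cells summed to 12223 and 13988 CPM in Siglech cells and to 274 to 362 CPM in the T cell classes. Macrophage markers summed to 74.0 to 196 CPM in the T cell classes. Melanoma transcripts sat in few cells, and 3 VISTA-KO CD8 cells held 5624 of the 5668 such UMIs of their class. Vsir lay at 112 CPM in CD8 cells of each library, with a VISTA-KO over WT ratio of 0.993 (0.948 to 1.04), and at ratios of 1.06 (0.982 to 1.14) and 1.03 (0.960 to 1.11) in conventional CD4 and regulatory cells. Reads of a droplet kit need not cross the deleted exons, which are not given in the sources used here, so that these levels do not check the genotypes. WT and VISTA-KO below name the libraries as labelled.

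**Figure D1:**
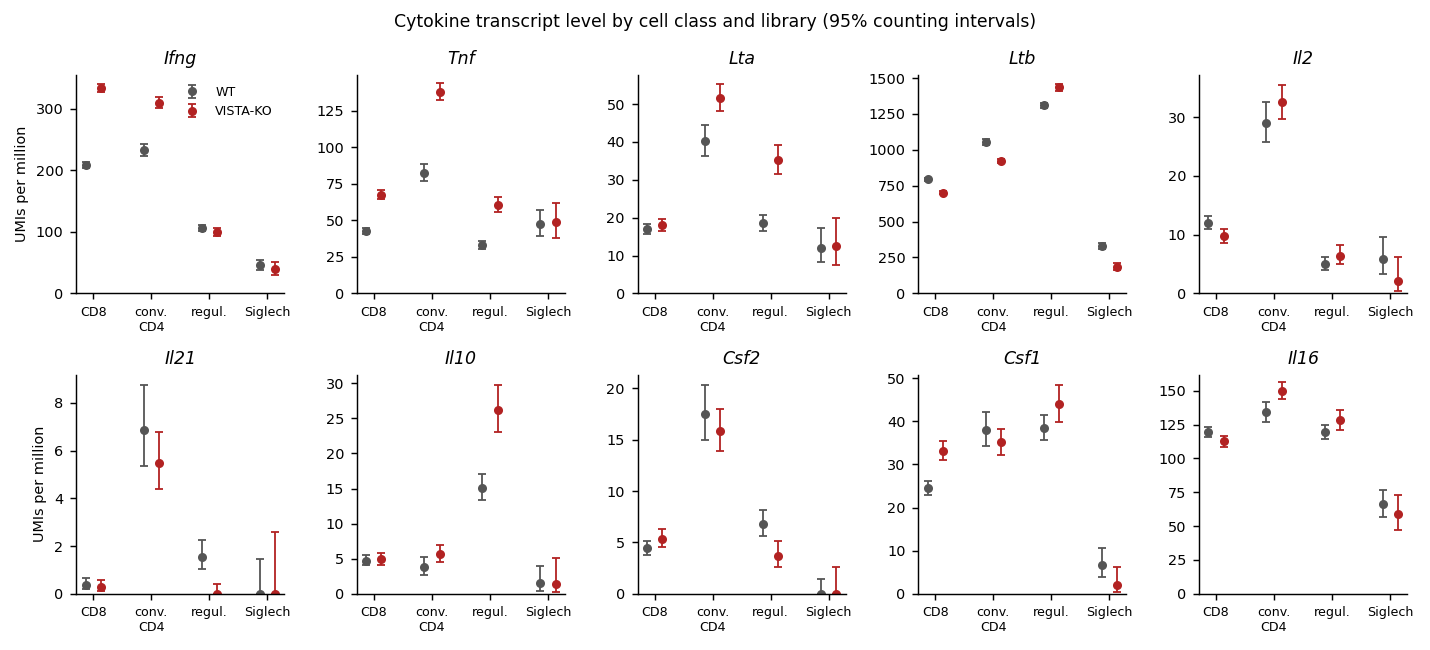
Level of each of the 10 cytokines in the 4 cell classes, in CPM on linear axes from 0, for the WT and the VISTA-KO library. Error bars are exact 95% Poisson intervals and cover counting error only, with 1 library per genotype. Ifng stood between 99.8 and 333 CPM in the T cell classes and at 45.3 and 39.8 CPM in Siglech cells, and Ltb and Il10 were highest in regulatory cells of both libraries.

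Ifng, Tnf and, by less, Csf1 stood higher in VISTA-KO CD8 cells. A log2 ratio over 0.5 in genes with at least 20 CPM in 1 library was used as the mark of a difference in size, and 1.15% of the 6065 such genes in CD8 cells passed it upward and 0.709% passed -0.5 downward. Of the 5 cytokines at that level in CD8 cells, 2 passed upward, Ifng and Tnf, and none passed downward. Csf1, at 0.37, passed it at 0.64 without cells holding a Mki67 or Top2a UMI, genes of dividing cells. Their median log2 ratio was 0.37, beside -0.03 over all 6065 genes. In conventional CD4 cells 1.41% of 6261 genes passed upward, and of 7 cytokines 1 did, Tnf. Ifng joined it at 0.58 with stricter CD8 and CD4 thresholds and at 0.61 without Mki67 or Top2a cells. In regulatory cells 2.77% of 6274 genes passed upward, and of 7 cytokines 3 did, Tnf, Lta and Il10. Lta and Il10 reached 20 CPM there in VISTA-KO alone, with 18.5 and 15.1 CPM in WT. Their place among the 7 thus came from the library where they were higher. Each of these 3 calls was lost under 1 alternative, Tnf at 0.35 without Mki67 or Top2a cells, Lta at 0.42 with stricter thresholds and Il10 at 0.47 without the 10 cells richest in it, where its levels were 11.5 and 17.8 CPM. None passed downward in the CD4+ classes, where 1.47% and 2.44% of genes did. In Siglech cells 3.73% of 6405 genes passed upward and 5.31% downward, and of 4 cytokines 1 passed downward, Ltb. Of its UMIs there, 810 of 842 in WT and 253 of 267 in VISTA-KO lay in cells with a paired receptor or a UMI of the T cell gene Cd3e. Such cells were 75 of 221 in WT and 35 of 138 in VISTA-KO. The other Siglech cells gave 26.6 CPM (18.2 to 37.6) and 15.2 CPM (8.30 to 25.5) of Ltb, with overlapping intervals.

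The 3 loci of the genes read most closely are shown because Ifng and Tnf were both higher in VISTA-KO CD8 cells, whereas Ltb, a neighbor of Tnf, was lower. Ifng (ENSMUSG00000055170) lies on the forward strand of chromosome 10 of GRCm38, from 118441046 to 118445894. Tnf (ENSMUSG00000024401) lies on the reverse strand of chromosome 17 from 35199367 to 35202007. Ltb (ENSMUSG00000024399) lies on the forward strand of the same chromosome from 35194507 to 35196305, 3061 bases before Tnf, and Lta (ENSMUSG00000024402) follows Tnf after 1157 bases. The 250 bases before each annotated start are printed 5′ to 3′ on the strand of the gene, from RefSeq on GRCm38.p6, with matches to any of 5 motifs on either strand in capitals. They cover chr10:118440796-118441045 for Ifng, chr17:35202008-35202257 for Tnf and chr17:35194257-35194506 for Ltb.
Ifng: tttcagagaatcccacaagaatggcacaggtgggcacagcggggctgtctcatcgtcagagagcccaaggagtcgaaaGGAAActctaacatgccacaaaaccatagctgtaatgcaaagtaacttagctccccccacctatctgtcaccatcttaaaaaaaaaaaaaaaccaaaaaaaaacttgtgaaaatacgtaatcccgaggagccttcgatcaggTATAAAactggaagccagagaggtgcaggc
Tnf: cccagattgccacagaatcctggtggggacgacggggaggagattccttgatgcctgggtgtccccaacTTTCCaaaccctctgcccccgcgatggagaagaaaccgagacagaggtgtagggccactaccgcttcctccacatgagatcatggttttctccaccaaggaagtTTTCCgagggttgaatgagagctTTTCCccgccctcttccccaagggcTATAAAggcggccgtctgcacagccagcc
Ltb: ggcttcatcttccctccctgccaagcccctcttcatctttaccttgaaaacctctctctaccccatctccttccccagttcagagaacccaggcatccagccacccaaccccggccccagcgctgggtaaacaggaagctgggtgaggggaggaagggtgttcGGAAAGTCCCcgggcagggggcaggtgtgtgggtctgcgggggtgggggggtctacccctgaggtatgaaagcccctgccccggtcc

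The motifs searched were GGAAA, the core bound by NFAT, TGANTCA of AP-1, the NF-kappaB consensus, the T-box half-site TCACACC and, as the TATA box, TATAAA. The Ifng window held 1 GGAAA and 1 TATAAA, and the Tnf window 3 GGAAA, written as TTTCC where it lies on the other strand, and 1 TATAAA. The Ltb window held no TATAAA and 1 GGAAA that overlapped a match of the NF-kappaB consensus. Among the 32851 windows of the same length in the table, 55.6% held GGAAA, 12.4% TATAAA, 3.90% the NF-kappaB consensus, 6.75% TGANTCA and 3.33% TCACACC. The letters TATAAA also lay in the windows of Lta and of Il2 (ENSMUSG00000027720), the latter on chromosome 3 from 37120713 to 37125954. The Lta window, from 35205352 to 35205601, overlapped the annotated gene, which runs from 35203165 to 35205578. Its match is therefore not read as a TATA box. 9 of the 10 cytokines had an entry in the table, and Il10 was not among them. The matches are letters in a window and were not tied to any level.

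Ifng stood 1.59-fold (1.55 to 1.64) higher in VISTA-KO than in WT CD8 cells, at 333 CPM (326 to 340) against 209 CPM (204 to 214). Of 6065 genes in these cells, 0.643% had a higher log2 ratio. Cells with an Ifng UMI made up 24.5% (23.4 to 25.7) of CD8 cells for WT and 31.5% (30.1 to 32.9) for VISTA-KO at equal depth, and 43.4% and 52.2% without thinning. A positive cell carried 2.22 UMIs in VISTA-KO and 1.70 in WT, so both the share and the load of positive cells were higher. Much of the RNA lay in few cells. One VISTA-KO CD8 cell held 586 Ifng UMIs, and the 10 cells with most UMIs held 16.3% of all, against 8.70% in WT. Without the 10 top cells of each library the ratio was 1.46 (1.41 to 1.51).

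Ifng lay in conventional CD4 cells at 232 CPM (223 to 242) for WT and 309 CPM (301 to 318) for VISTA-KO, a ratio of 1.33 (1.27 to 1.40) and a log2 ratio of 0.41. The shares of cells with a UMI, 25.5% (23.3 to 27.7) and 27.7% (26.0 to 29.4), had overlapping intervals, and positive cells carried 1.69 and 2.20 UMIs. With another random draw in thinning these shares were 23.8% and 28.1%, so their overlap depended on the draw. In regulatory cells Ifng lay at 106 CPM (101 to 111) and 99.8 CPM (93.5 to 106), a ratio of 0.941 (0.869 to 1.02), with 12.9% and 12.4% of cells positive. The order of classes was thus conventional CD4, CD8, regulatory in WT, and CD8, conventional CD4, regulatory in VISTA-KO, with no overlap of neighboring intervals. Without the 10 top cells, CD8 and conventional CD4 cells lay at 192 and 201 CPM in WT and at 280 and 277 CPM in VISTA-KO. The order of these classes in the VISTA-KO level thus rested on few cells. Their shares of positive cells had overlapping intervals in WT but not in VISTA-KO. Siglech cells of both libraries came last, at 45.3 and 39.8 CPM. Their Ifng lay almost wholly in cells that also held T cell RNA. Among Siglech cells with neither a clonotype nor a Cd3e UMI, 146 in WT and 103 in VISTA-KO, there were 3 and 1 Ifng UMIs, and 0.685% and 0.980% of thinned cells had one. These cells were chosen for lacking marks of T cells, so their shares do not measure free T cell RNA. Over all Siglech cells 3.18% (1.29 to 6.45) and 5.11% (2.08 to 10.2) of thinned cells had an Ifng UMI. The shares in T cell classes lay above these values.

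Tnf was higher in the VISTA-KO library in all 3 T cell classes. Its levels were 42.9 CPM (40.8 to 45.1) for WT and 67.6 CPM (64.6 to 70.7) for VISTA-KO CD8 cells, a ratio of 1.58 (1.47 to 1.69). Conventional CD4 cells gave 82.4 CPM (76.8 to 88.3) and 138 CPM (132 to 144), a ratio of 1.68 (1.55 to 1.82). Regulatory cells gave 33.0 CPM (30.4 to 35.8) and 60.6 CPM (55.8 to 65.8), a ratio of 1.84 (1.63 to 2.06). Conventional CD4 cells thus held most Tnf for their RNA in each library. The share of cells with a Tnf UMI at equal depth was 7.40% (6.70 to 8.14) and 11.7% (10.8 to 12.8) in CD8 cells, 13.4% (11.8 to 15.2) and 17.9% (16.5 to 19.4) in conventional CD4 cells, and 5.67% (4.53 to 6.99) and 8.85% (7.31 to 10.6) in regulatory cells. With another random draw in thinning the regulatory shares were closer, 6.50% and 7.86%. Without thinning the share in regulatory cells ran the other way, 22.9% in WT and 21.4% in VISTA-KO, with the WT cells at the greater depth. Without the 10 top cells of each library the ratios were 1.67 (1.55 to 1.79), 1.86 (1.70 to 2.04) and 1.61 (1.41 to 1.83). Siglech cells, which make Tnf themselves when stimulated, lay at 47.6 and 48.9 CPM, and those without a clonotype or Cd3e UMI at 41.6 and 42.3 CPM.

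Lta, which encodes lymphotoxin-alpha, was again highest in conventional CD4 cells, at 40.3 CPM (36.4 to 44.5) for WT and 51.7 CPM (48.1 to 55.4) for VISTA-KO, a ratio of 1.28 (1.14 to 1.45). The share of positive cells there did not move with the level, at 7.26% (6.01 to 8.68) and 6.76% (5.86 to 7.75), and 1 VISTA-KO cell held 76 UMIs. In regulatory cells Lta lay at 18.5 CPM (16.5 to 20.6) and 35.1 CPM (31.4 to 39.1), a ratio of 1.90 (1.63 to 2.22), with 3.73% (2.82 to 4.84) and 5.13% (3.95 to 6.53) of cells positive. Without thinning these shares ran the other way, 14.3% and 13.7%, with the WT cells at the greater depth. CD8 cells gave 16.9 CPM (15.6 to 18.3) and 17.97 CPM (16.4 to 19.6), whose intervals overlapped. The adjacent genes Tnf and Lta therefore had ratios of 1.58 and 1.06 in the same CD8 cells.

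Ltb, which encodes the membrane-bound partner of lymphotoxin-alpha, ran against Tnf in CD8 and conventional CD4 cells. It lay at 794 CPM (785 to 803) for WT and 700 CPM (691 to 710) for VISTA-KO CD8 cells, a ratio of 0.882 (0.866 to 0.898). Conventional CD4 cells gave 1054 CPM (1033 to 1074) and 922 CPM (907 to 938), a ratio of 0.875 (0.853 to 0.898), and the share of positive cells was 79.5% (77.3 to 81.5) and 72.0% (70.3 to 73.6) at equal depth. These log2 ratios, -0.18 and -0.19, were well inside the mark of 0.5. Regulatory cells held the highest Ltb level of each library, 1311 CPM (1294 to 1328) and 1435 CPM (1411 to 1460), a ratio of 1.10 (1.07 to 1.12), but 87.1% (85.3 to 88.8) and 84.4% (82.2 to 86.4) of them were positive at equal depth. The regulatory direction was lost under 2 alternatives, at a log2 ratio of -0.0018 with stricter CD8 and CD4 thresholds and -0.022 without Mki67 or Top2a cells. At equal depth Ltb was found in 0.839 to 0.906 times the cells that an even spread of its UMIs would give in the T cell classes, and Ifng in 0.606 to 0.828 times.

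**Figure D2:**
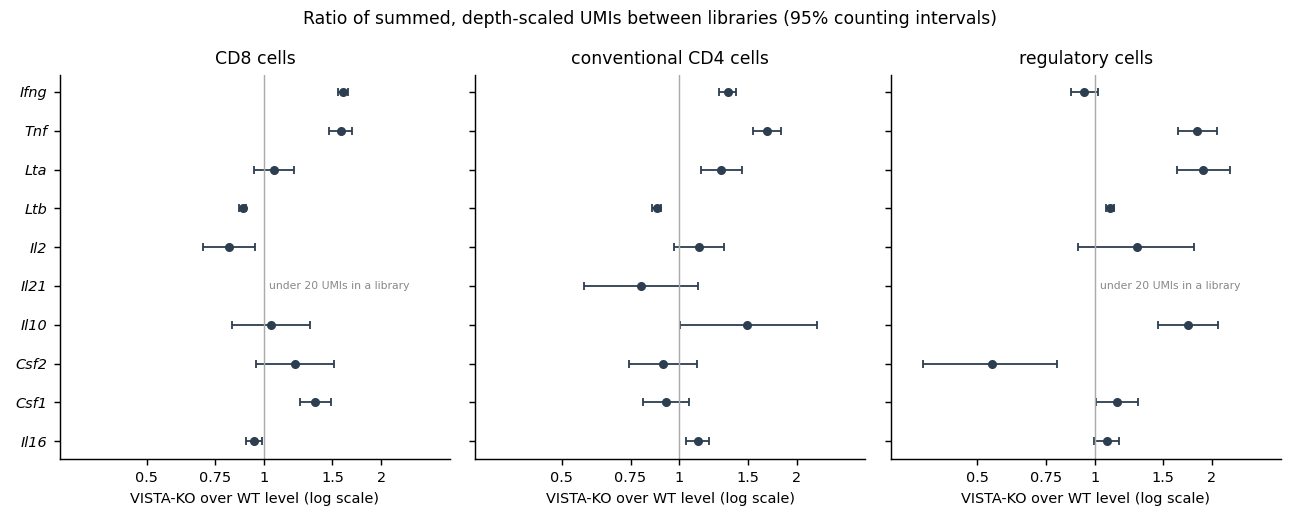
VISTA-KO over WT ratio of each cytokine in CD8, conventional CD4 and regulatory cells, on a logarithmic axis. Bars are exact 95% intervals of the ratio and cover counting error only, and no ratio is drawn where a library held under 20 UMIs. Tnf lay between 1.58 and 1.84 in all 3 classes, whereas Ifng ran from 1.59 in CD8 cells to 0.941 in regulatory cells and Ltb lay at 0.882, 0.875 and 1.10.

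Il2 was highest in conventional CD4 cells of each library, at 29.0 CPM (25.7 to 32.6) for WT and 32.5 CPM (29.7 to 35.5) for VISTA-KO, a ratio of 1.12 (0.967 to 1.30). At equal depth 6.94% (5.71 to 8.33) and 5.42% (4.61 to 6.32) of these cells had a UMI. In CD8 cells Il2 lay at 12.0 CPM (10.9 to 13.2) and 9.77 CPM (8.65 to 11), a ratio of 0.814 (0.698 to 0.949). That difference rested on 1 cell, since a single WT CD8 cell held 137 of the 441 Il2 UMIs, and a single VISTA-KO cell held 59 of 273. Regulatory cells, which depend on interleukin-2 from other cells, had the lowest T cell level, 5.02 CPM (4.03 to 6.19) and 6.43 CPM (4.92 to 8.26), with 0.830% and 1.08% of cells positive at equal depth. Siglech cells lay at 5.86 CPM (3.28 to 9.66) and 2.10 CPM (0.432 to 6.13), with 0.455% (0.0115 to 2.51) and 0.730% (0.0185 to 4.0) positive. Those with neither a clonotype nor a Cd3e UMI held no Il2 UMI, with upper limits of 3.07 and 4.0 CPM. The Il2 level of regulatory cells lay above these limits and overlapped that of all Siglech cells. The limits come from cells chosen for lacking marks of T cells and do not measure free T cell RNA. Without the 10 top cells of each library the Il2 level of regulatory cells was 3.51 and 3.74 CPM. The part of RNA from other T cells in it was not tested.

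Il21 was rare. Conventional CD4 cells held 67 and 84 UMIs, or 6.89 CPM (5.34 to 8.74) and 5.48 CPM (4.37 to 6.79), and CD8 cells 14 and 8 UMIs. WT regulatory cells held 27 UMIs in 11 cells and VISTA-KO regulatory cells none. The WT level was 1.54 CPM, the upper limit of the VISTA-KO over WT ratio was 0.271, and the 10 top cells held 96.3% of the WT UMIs. Those 10 cells were deep, with a median of 19363 UMIs, against 8739 in WT and 5908 in VISTA-KO regulatory cells. A clonotype was found in 3 of them, the same in each. Without the 10 cells 1 WT UMI was left and the upper limit was 71.7, so the difference rested on them. Cxcr5, a receptor of follicular helper T cells, had a UMI in 10 and 19 thinned conventional CD4 cells, too few to read Il21 beside it.

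Il10 was highest in regulatory cells, at 15.1 CPM (13.3 to 17.1) for WT and 26.3 CPM (23.1 to 29.7) for VISTA-KO, a ratio of 1.74 (1.45 to 2.07). The shares of positive cells at equal depth were 2.90% (2.10 to 3.91) and 3.89% (2.87 to 5.14), with overlapping intervals. Without thinning they ran the other way, 10.1% and 8.25%, with the WT cells at the greater depth. Without the 10 top cells of each library the ratio was 1.55. CD8 cells lay at 4.71 and 4.90 CPM and conventional CD4 cells at 3.80 CPM (2.68 to 5.24) and 5.68 CPM (4.55 to 7.0), well below regulatory cells in both libraries.

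The growth factor genes Csf2 and Csf1 differed in how they were spread. Csf2, which encodes GM-CSF, lay at 17.5 CPM (14.9 to 20.3) for WT and 15.9 CPM (13.9 to 17.98) for VISTA-KO conventional CD4 cells, a ratio of 0.908 (0.743 to 1.11), and 10 cells held 87.7% and 79.8% of it. In regulatory cells it lay at 6.79 and 3.69 CPM, a ratio of 0.544 (0.362 to 0.798) that came from 31 and 12 positive cells. In CD8 cells the ratio was 1.20 (0.957 to 1.51). Csf1, which encodes M-CSF, lay at 24.5 CPM (22.9 to 26.1) and 33.2 CPM (31.1 to 35.4) in CD8 cells, a ratio of 1.36 (1.24 to 1.49), with 2.95% (2.50 to 3.44) and 4.64% (4.02 to 5.33) of cells positive. Without the 10 top cells of each library that ratio was 1.32. In conventional CD4 cells it lay at 38.0 CPM (34.3 to 42.1) and 35.2 CPM (32.3 to 38.3), a ratio of 0.925 (0.809 to 1.06), and in regulatory cells at 38.5 CPM (35.7 to 41.5) and 44.0 CPM (39.9 to 48.4), a ratio of 1.14 (1.01 to 1.29). The shares of positive regulatory cells at equal depth ran the other way, 8.37% (6.99 to 9.92) and 6.95% (5.58 to 8.53), with overlapping intervals. Without the 10 top cells of each library the regulatory ratio was 1.05 (0.914 to 1.20).

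Il16 lay near the same level in every T cell class. It stood at 119 CPM (116 to 123) for WT and 113 CPM (109 to 117) for VISTA-KO CD8 cells, at 135 CPM (127 to 142) and 150 CPM (144 to 156) in conventional CD4 cells, and at 120 CPM (114 to 125) and 128 CPM (121 to 136) in regulatory cells. The ratios were 0.944 (0.902 to 0.989), 1.12 (1.04 to 1.20) and 1.07 (0.999 to 1.15). At equal depth it was found in 0.968 to 0.998 times the T cells that an even spread of its UMIs would give. Siglech cells without a clonotype or Cd3e UMI held it as well, at 55.8 and 55.3 CPM.

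Cytokines were found in the same cell more often than the product of their shares would give in some pairs and not in others. Among CD8 cells at equal depth, 139 WT cells (2.68%) held both Ifng and Tnf, where the product of the shares gave 1.81%, an observed over expected ratio of 1.48 (1.24 to 1.74). In VISTA-KO, 217 cells (5.27%) held both against 3.69%, a ratio of 1.43 (1.24 to 1.63). VISTA-KO CD8 cells with both were thus more frequent, and the ratio over the product lay inside the other library's interval. Conventional CD4 cells gave 4.84% with a ratio of 1.42 (1.11 to 1.78) and 7.29% with a ratio of 1.47 (1.28 to 1.69). In regulatory cells 12 and 23 cells held both, with ratios of 1.14 (0.588 to 1.99) and 1.73 (1.10 to 2.60). Intervals here are Poisson intervals of the number of cells with both, and cells of 1 library are not replicates.

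Csf1 was found with Ifng in every T cell class. The ratio over the product was 1.44 (1.08 to 1.88) and 1.71 (1.40 to 2.08) in CD8 cells, 1.82 (1.28 to 2.50) and 2.10 (1.63 to 2.66) in conventional CD4 cells, and 1.67 (1.09 to 2.45) and 1.82 (1.10 to 2.85) in regulatory cells. Of the VISTA-KO CD8 cells with a Csf1 UMI, 53.9% also held Ifng, against 30.4% of those without Csf1. In WT these shares were 35.3% and 24.2%. Pairs with Ltb, which most cells held, could reach at most 1.42 and 1.499 in CD8 cells and 1.15 and 1.19 in regulatory cells, so that values near 1 say little there. Ifng with Ltb gave 1.00 (0.937 to 1.07) and 0.975 (0.910 to 1.04) in CD8 cells, and Ltb with Il16 gave 1.02 in each library. Lta and Ltb, whose proteins join in a complex, gave 1.21 (1.03 to 1.41) and 1.16 (0.955 to 1.41) in CD8 cells.

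**Figure D3:**
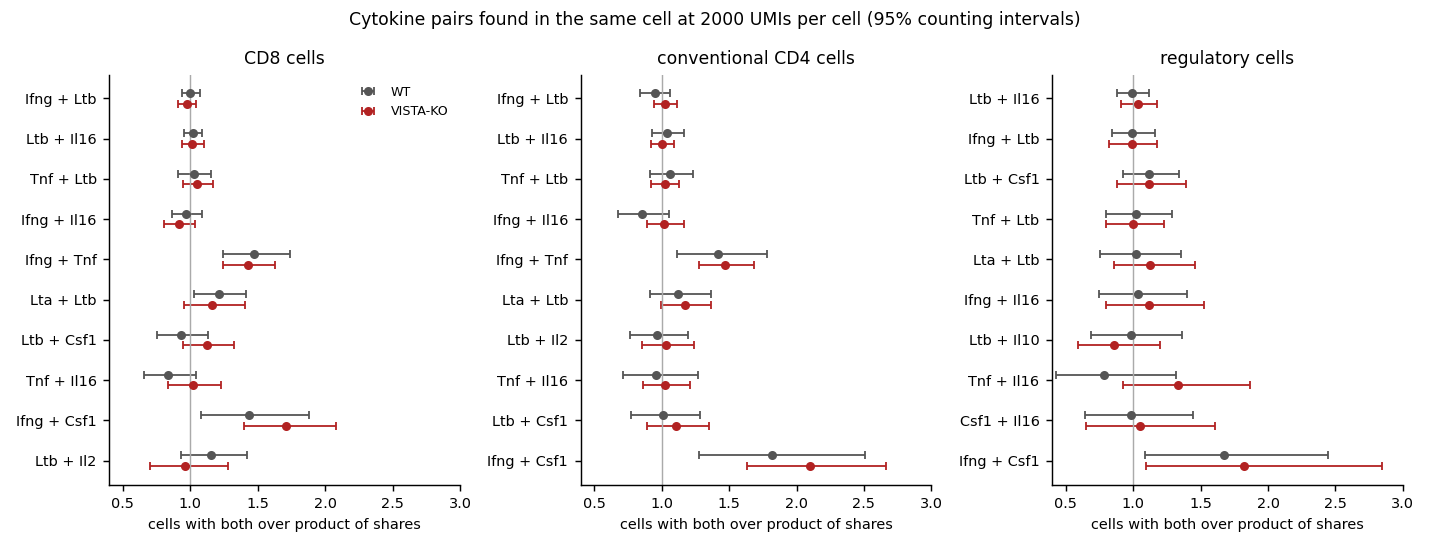
Cells with UMIs of both cytokines of a pair, divided by the number that the product of the shares gives, for the 10 pairs found in most cells of each T cell class, at 2000 UMIs per cell. Bars are exact 95% Poisson intervals of the number of cells with both, and the line marks 1. Ifng-Tnf stood at 1.42 to 1.48 in CD8 and conventional CD4 cells of both libraries, while Ltb-Il16 lay between 0.991 and 1.04.

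Leaving out the widely held Ltb and Il16, 64.7% of WT and 57.4% of VISTA-KO CD8 cells held none of the other 8 cytokines at equal depth. Cells with 2 of them made up 5.18% and 8.63% and cells with 3 made up 0.520% and 1.26%. Among conventional CD4 cells 54.7% and 52.6% held none, in regulatory cells 71.1% and 69.2%, and in Siglech cells 88.2% and 87.6%. Cells with Ifng, Tnf and Il2 together, the combination often called polyfunctional, were few, 10 and 6 among CD8 cells and 6 and 13 among conventional CD4 cells. None was found in 1446 WT and 1209 VISTA-KO regulatory cells, which at a limit of 3 cells allows up to 0.207% and 0.248% of cells with UMIs of all 3 at 2000 UMIs per cell, and sets no limit on cells that express them. Thinning left out 290 WT and 186 VISTA-KO CD8 cells, 133 and 158 conventional CD4 cells, and 45 and 51 regulatory cells with fewer than 2000 UMIs.

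Within CD8 cells, Ifng followed genes of activation and exhaustion. In thinned cells, where each cell counts alike, it lay at 436 CPM (388 to 488) for WT and 597 CPM (545 to 653) for VISTA-KO cells with a UMI of Havcr2, which encodes the inhibitory receptor TIM-3, against 192 CPM (184 to 201) and 323 CPM (311 to 337) without. With Tcf7, the factor of naive, memory and stem-like cells, it lay at 148 CPM (133 to 164) and 201 CPM (181 to 223), against 227 CPM (217 to 238) and 392 CPM (377 to 407) without. Ifng was thus higher in Havcr2+ and lower in Tcf7+ cells in both libraries. The VISTA-KO over WT ratio was above 1 on each side of every split, from 1.32 (1.22 to 1.42) in cells without Nr4a1 to 1.78 (1.63 to 1.94) in cells with Pdcd1. In cells with Klrg1, a receptor of terminal effector cells, it was 1.73 (1.46 to 2.06).

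Tnf and Csf1 took other sides. CD8 cells with Pdcd1, which encodes PD-1, held less Tnf, 38.1 CPM (32.5 to 44.4) against 56.5 CPM (50.6 to 62.8) in WT and 58.5 CPM (50.1 to 67.8) against 97.6 CPM (89.4 to 106) in VISTA-KO. They held more Csf1, 31.0 CPM (26.0 to 36.7) against 10.6 CPM (8.08 to 13.5) in WT and 47.0 CPM (39.6 to 55.5) against 22.8 CPM (18.9 to 27.3) in VISTA-KO. Csf1 was low in Tcf7+ cells, 4.42 CPM (2.21 to 7.90) and 16.1 CPM (10.8 to 23.2), against 23.7 and 35.9 CPM without. Pdcd1+ CD8 cells therefore carried Csf1 with less Tnf than the others, in both libraries.

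Nr4a1, an immediate-early gene of T cell receptor signaling, moved with these results and is given beside them. A UMI of it was found at equal depth in 16.3% (15.3 to 17.3) and 35.5% (34 to 36.9) of CD8 cells, in 21.7% and 54.7% of conventional CD4 cells, and in 24.6% and 58.6% of regulatory cells. Nr4a1+ CD8 cells held more Ifng, 362 CPM (334 to 392) for WT and 560 CPM (533 to 588) for VISTA-KO, against 178 CPM (170 to 188) and 235 CPM (222 to 248) without. Within Nr4a1+ and Nr4a1- CD8 cells the VISTA-KO over WT ratios of Ifng were 1.55 (1.41 to 1.70) and 1.32 (1.22 to 1.42), and those of Tnf 1.38 (1.14 to 1.67) and 1.48 (1.27 to 1.73). For conventional CD4 cells those of Ifng were 1.45 (1.23 to 1.71) and 1.15 (1.02 to 1.30), and those of Tnf 1.12 (0.901 to 1.40) and 1.42 (1.19 to 1.71). Tnf in Nr4a1+ conventional CD4 cells was thus not distinguishable between libraries. The immediate-early genes also respond to handling during isolation, and their part in the cytokine levels was not tested.

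**Figure D4:**
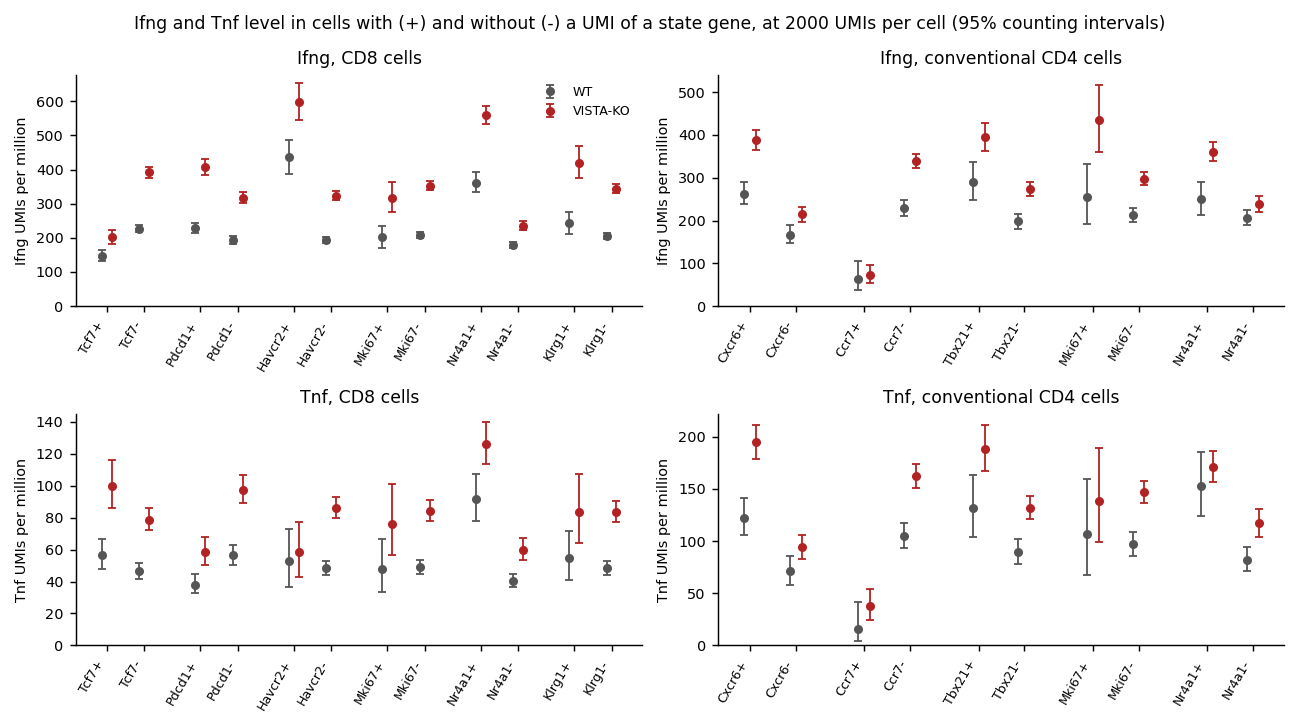
Level of Ifng and Tnf in CD8 and conventional CD4 cells with (+) and without (-) a UMI of a state gene, in CPM of cells thinned to 2000 UMIs, for WT and VISTA-KO. Bars are exact 95% Poisson intervals and cover counting error only. Ifng in CD8 cells stood at 436 and 597 CPM with Havcr2 and at 192 and 323 CPM without it.

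In conventional CD4 cells, Ifng and Tnf went with Cxcr6, a chemokine receptor of tissue-resident T cells. Ifng lay at 262 CPM (238 to 289) for WT and 388 CPM (366 to 411) for VISTA-KO Cxcr6+ cells and at 166 CPM (146 to 189) and 214 CPM (197 to 232) in the others. Tnf lay at 123 CPM (106 to 141) and 195 CPM (179 to 211), against 71.1 CPM (58.2 to 86.0) and 94.0 CPM (82.8 to 106). Both were lowest with Ccr7, the lymph node homing receptor of naive and central memory cells, where Ifng lay at 64.5 CPM (36.9 to 105) and 73.6 CPM (55.1 to 96.3) and Tnf at 16.1 CPM (4.39 to 41.3) and 37.5 CPM (24.7 to 54.6). All 69 Csf2 UMIs of thinned VISTA-KO conventional CD4 cells lay in Cxcr6+ cells. WT cells held Csf2 on both sides, at 26.2 CPM (18.8 to 35.5) and 11.4 CPM (6.64 to 18.3). With Tbx21, which encodes the Th1 factor T-bet, Ifng lay at 290 and 394 CPM, and without it at 198 and 273 CPM, so that it was not limited to cells with a detected Tbx21 UMI.

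In regulatory cells the counts behind each split were small. Il10 lay at 80.4 CPM (47.6 to 127) in VISTA-KO Mki67+ cells and 24.2 CPM (18.1 to 31.6) in Mki67- cells, with 18 UMIs in the 112 Mki67+ cells. Mki67 encodes a protein of cycling cells. With Prdm1, which encodes the effector factor Blimp-1, VISTA-KO cells held 74.2 CPM (47.0 to 111) of Il10 and without it 22.8 CPM (16.8 to 30.2). In WT these splits gave 12.9 CPM (3.52 to 33.0) against 19.0 CPM (14.0 to 25.1) and 24.3 CPM (13 to 41.6) against 17.0 CPM (12.1 to 23.1), with overlapping intervals. The higher Il10 of cycling and Prdm1+ regulatory cells was seen in the VISTA-KO library, and the difference between libraries was not tested.

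The clonal makeup of the libraries differed, so CD8 cytokines were also read by clonotype, a pair of alpha and beta chains. CD8 cells held 1143 clonotypes in WT and 1656 in VISTA-KO. Only 2 occurred in both libraries and none of the 3 largest of either did. The largest WT clonotype had 1034 cells and the largest VISTA-KO clonotype 291. Ifng in the 3 largest lay at 166, 220 and 433 CPM in WT and 196, 234 and 749 CPM in VISTA-KO, so that clonotypes of 1 library differed more among themselves than the libraries did. The third clonotype of each library, with 79 and 60 cells, also held the most Csf1 of the 3, 84.2 and 156 CPM, against 4.0 and 16.9 CPM in WT and 3.97 and 8.91 CPM in VISTA-KO for the first and the second. Tnf in the 3 lay at 43.8, 32.9 and 19.6 CPM in WT and at 22.5, 16.3 and 22.8 CPM in VISTA-KO. For the first and the second it was lower in VISTA-KO, with no overlap of intervals, in clonotypes that differ between the libraries.

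Ifng was as much higher in VISTA-KO CD8 cells when the large clonotypes were left out. The ratio was 1.60 (1.55 to 1.65) after removal of the largest clonotype and 1.63 (1.58 to 1.69) after removal of the 3 largest. It was 2.06 in clonotypes seen in 1 cell, at 134 CPM (124 to 145) for WT and 277 CPM (265 to 289) for VISTA-KO. It was 1.29 in those of 2 to 9 cells, at 268 and 345 CPM, and 2.03 in those of 10 or more cells other than the 3 largest, at 254 and 517 CPM. With the top cell of each library left out, these ratios were 2.40, 1.44 and 1.48. Cells without a clonotype gave 1.54. Tnf gave 1.55 (1.33 to 1.82) in single-cell clonotypes, 1.16 (0.996 to 1.36) in those of 2 to 9 cells, 2.35 (1.99 to 2.78) in those of 10 or more and 1.82 (1.60 to 2.07) in cells without a clonotype. Without the top cell of each library Tnf in clonotypes of 2 to 9 cells gave 1.41 (1.19 to 1.67), 1 WT cell there holding 47 Tnf UMIs. Ifng thus lay higher in VISTA-KO in each size class, the 3 largest clonotypes aside, and Tnf did too once that cell was left out. The size classes were not tested against each other.

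**Figure D5:**
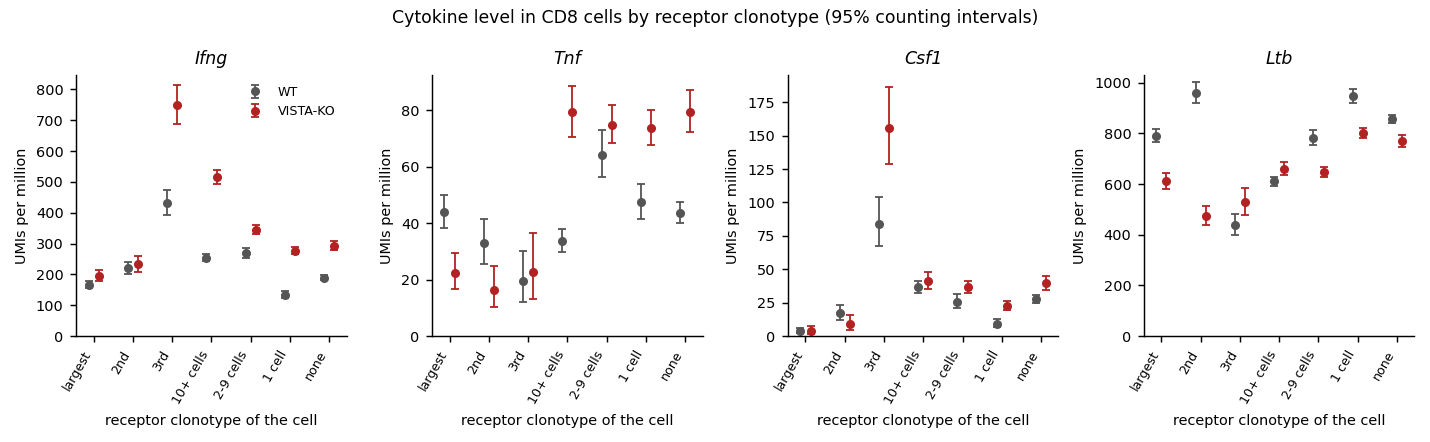
Level of Ifng, Tnf, Csf1 and Ltb in CD8 cells grouped by clonotype, in CPM on linear axes, for WT and VISTA-KO. The 3 largest clonotypes of the libraries are different clonotypes and are numbered by size within each library. Bars are exact 95% Poisson intervals and cover counting error only, and Ifng lay at 134 and 277 CPM in clonotypes of 1 cell and at 433 and 749 CPM in the third largest.

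Other genes of the pathways were read in lists. Over all genes with at least 20 CPM, 1.15%, 1.41% and 2.77% passed upward in CD8, conventional CD4 and regulatory cells. Downward 0.709%, 1.47% and 2.44% passed, and the median log2 ratios were -0.03, -0.04 and -0.0072. These values stand beside the counts and medians of each list. The share of all genes above 0 was not taken. Of 14 targets of interferon-gamma with at least 20 CPM, 1 passed the mark upward in CD8 cells, Igtp, an immunity-related GTPase, at 116 and 168 CPM, and 13 of 14 had a log2 ratio above 0 with a median of 0.20. Among conventional CD4 cells 2 passed, Igtp at 152 and 219 CPM and Irf1, an interferon-induced transcription factor, at 264 and 381 CPM, with a median of 0.13. In regulatory cells 6 of 14 passed with a median of 0.39. None passed downward in any of the 3 classes. Of 9 receptors of these cytokines with at least 20 CPM none passed in CD8 or conventional CD4 cells and 1 did in regulatory cells.

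Of 18 factors that induce cytokine genes, 2 passed upward in CD8, 4 in conventional CD4 and 2 in regulatory cells, where 1 passed downward. Junb, a subunit of AP-1, lay at 1394 and 2007 CPM in CD8 and at 2413 and 4451 CPM in conventional CD4 cells. Irf4, a factor induced in proportion to receptor signaling, lay at 16.3 and 32.4 CPM and at 19.8 and 34.3 CPM. In both classes Irf4 reached 20 CPM in VISTA-KO alone. Tbx21 lay at 112 and 163 CPM and Bhlhe40, a factor that sustains GM-CSF production, at 544 and 862 CPM in conventional CD4 cells. Of 9 genes of transcript decay none passed in CD8 cells. In conventional CD4 cells Zfp36, whose product destabilizes Tnf transcripts, lay at 774 and 1235 CPM and Zc3h12a, which encodes the nuclease Regnase-1, at 60.6 and 105 CPM. Of the 12 listed genes of acute activation, 10 had at least 20 CPM. Of these, 4, 3 and 6 passed upward in CD8, conventional CD4 and regulatory cells, with medians of 0.31, 0.26 and 0.71. In Siglech cells 3 passed upward and 1 downward with a median of 0.44, Nr4a1 lying at 98.8 and 275 CPM, while the Tnf levels there were 47.6 and 48.9 CPM. The part of the activation genes in the Tnf levels was not tested.

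Cytokines outside the set differed in single genes. Of 8 such genes with at least 20 CPM in conventional CD4 cells 4 passed upward. Among these 4, Il17a and Il1b reached 20 CPM in VISTA-KO alone. Il17a, the cytokine of Th17 cells, lay at 3.39 CPM for WT and 108 CPM for VISTA-KO, a ratio of 31.8. Il1b, a product of myeloid cells, lay at 5.45 and 33.0 CPM beside summed macrophage markers of 196 and 185 CPM. Of these Lyz2, a lysozyme gene of myeloid cells, was higher in VISTA-KO, at 59.0 and 88.0 CPM, and Apoe and the complement genes C1qa, C1qb and C1qc were lower, Apoe at 38.8 and 27.6 CPM. The part of myeloid RNA in the Il1b level was not tested. Areg, which encodes amphiregulin, lay at 25.9 and 50.4 CPM, and Fasl, a death ligand, at 133 and 199 CPM. In regulatory cells Areg lay at 164 and 524 CPM and Il17a at 2.85 and 30.1 CPM, and in CD8 cells Il17a lay at 4.05 and 20.3 CPM. Il17a was thus higher in VISTA-KO in every T cell class. The number of cells that held it is not given here. Of 6 heat shock genes, which rise with handling, none passed upward and 2 passed downward in conventional CD4 and in regulatory cells. A list of abundant transcripts of other cells gave medians of 1.31 in CD8, -0.51 in conventional CD4 and 0.99 in regulatory cells, and its melanoma transcripts lay mostly in 1 to 3 cells of a class where they were high. Cd74, an abundant transcript of antigen-presenting cells on that list, lay at 492 and 170 CPM in CD8 and at 424 and 331 CPM in conventional CD4 cells, lower in VISTA-KO in each. Its part in the cytokine levels was not tested.

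Genes whose UMIs were densest in cells positive for a cytokine were ranked by the smaller of the WT and VISTA-KO enrichments over negative cells, in the T cell class with the highest level over both libraries pooled and at equal depth. For Ifng, which was higher in CD8 cells in VISTA-KO alone, that class was conventional CD4, and the genes were the chemokine genes Ccl3 (7.41 and 5.86) and Ccl4 (3.96 and 3.59), then Csf1, Nrgn and Zfp683. For Tnf they were Csf1 (2.51 and 2.61), Cxcl10, Tnfsf14, Ifng (1.92 and 2.44) and Tnfsf9. For Lta they were Ramp1 (2.44 and 1.95), Tnfrsf4, Lilrb4a, Relb and Krt83. For Il10 in regulatory cells they were the inhibitory receptor gene Lag3 (2.47 and 4.02), Got1, Crlf2, Ctla4 (2.17 and 1.84) and Rab11a, and for Csf1 Penk (3.38 and 3.60), Ccl3, Ccl4, Ifng (1.90 and 1.80) and Ramp1. The Il10 list rested on 42 WT and 47 VISTA-KO positive cells. In them Lag3 held only 35 and 40 UMIs, Got1 21 and 23 and Rab11a 24 and 21. The ranks were not tested. Ccl3 and Ccl4 thus stood on the lists of both Ifng and Csf1, and the pair stood on each other's. For Il16 they were Stard5 (1.99 and 1.64), Zfp865, Axin2, Fut11 and Ireb2. Il21 and Csf2 had fewer than 30 positive cells and were not ranked. Ltb in regulatory cells was led by Anks3 (5.61 and 5.37), whose 38 and 29 UMIs were few. Next came Trav9-1, Csf1 (6.99 and 3.52, with 142 and 114 UMIs), Trav13n-1 and Ptpn12. Il2 was led by the receptor segment Trbv3 (1.71 and 1.73), then Trat1, Krt83, Creb3 and Sit1.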

How the data were processed

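Gene expression was measured by droplet single-cell RNA sequencing in 1 pooled WT and 1 pooled VISTA-KO library. Genotypes came from the sample labels, which describe a 3′ kit with feature barcodes, whereas the methods name a 5′ kit with receptor profiling. Cell Ranger aligned the reads, and the authors deposited its raw counts of UMIs for each gene and barcode, not normalized, and a table of T cell receptor contigs whose read counts were used to pick chains. The submitters' processing notes name Seurat 4.0, whose output was not used.

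Cells with at least 600 genes and under 30% mitochondrial UMIs were kept. The total of a class set its precision, from 9481844 UMIs in VISTA-KO regulatory to 36756944 in WT CD8 cells. Class sums gave CPM, and log2 ratios were taken after adding 5 CPM to both levels. Intervals were exact at 95%, and a limit of 3 was used for a count of 0. The largest differences in size were read at 20 CPM or more in 1 library and a log2 ratio over 0.5. A clonotype was the V gene and junction of the alpha and beta chain with most counts in a cell. Doublets were not called, and cells with 2 or more beta chains were left out as an alternative. Enrichment beside a cytokine needed 20 UMIs in the positive cells of each library, and the first 5 genes per cytokine were named. Other genes named were those of the lists of other cytokines, receptors, inducing factors, transcript decay, interferon-gamma targets, activation, free RNA and heat shock genes that passed the mark or are discussed above. The cytokines, lists and rules were chosen with earlier results of these data known. Alternatives were another pseudocount, scaling, filters, thinning depth, class thresholds, cells with 2 or more beta chains and the largest clonotype, and 4 were added after seeing the data. The ratio and its interval were tested on Poisson counts drawn from WT class sums with known folds put in. Such counts lack the crowding of UMIs in single cells. Thinning was checked on the WT counts themselves. The co-detection, state, clonotype and enrichment steps were not simulated. Python 3.11.15, numpy 2.4.6, scipy 1.17.1, pandas 2.3.3 and matplotlib 3.10.9 were used.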

Additional observations from a re-analysis of the deposited data

Results flagged for a closer look

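Ltb moved in opposite directions between cell classes. Its VISTA-KO over WT ratio was 0.882 in CD8 cells and 0.875 in conventional CD4 cells, but 1.10 in regulatory cells, and the counting intervals excluded 1 in all 3 classes. The regulatory log2 ratio turned to -0.0018 with stricter CD8 and CD4 thresholds and to -0.022 without cells holding a Mki67 or Top2a UMI, so that the opposite direction was lost there. The difference between classes was not tested, since each genotype had 1 library. Il16 lay at a ratio of 0.944 in CD8 cells and 1.12 in conventional CD4 cells, again on opposite sides of 1, and this difference was not tested either.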

How the results depend on the processing

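No paired analysis was possible because each genotype had 1 library and the labels carry no replicate numbers, and for the same reason no library could be left out. Over the alternatives, 294 log2 ratios of cytokines kept their value within the counting interval, 22 moved and 2 whose interval lay on 1 side of 0 changed sign. Among the first 2 kinds 11 with an interval that held 0 crossed it. Of the shares of positive cells, 75 kept it, 14 moved and 1 was counted as a change of sign. Differences between shares with overlapping intervals that crossed 0 were not counted so. Without thinning, the regulatory shares of Lta (14.3% and 13.7%), Il10 (10.1% and 8.25%), Il2 (4.76% and 3.57%) and Il16 (66.1% and 55.2%) ran the other way. Of the co-detection ratios 293 kept it and 7 moved. Ltb in regulatory cells changed sign, to a log2 ratio of -0.0018 with stricter CD8 and CD4 thresholds and -0.022 without cells holding a Mki67 or Top2a UMI. With stricter thresholds Ifng lay at 0.58 in conventional CD4 and, from -0.08, at 0.29 in regulatory cells. In regulatory cells it lay at -0.24 without cells with 2 or more beta chains and -0.25 without the 10 cells richest in it, so its direction there was not settled. Without Mki67 or Top2a cells, Ifng lay at 0.82 in CD8 and 0.61 in conventional CD4 cells and Tnf at 0.35 in regulatory cells, and without the 10 richest cells Ifng in CD8 cells lay at 0.53. Without thinning, the share with a Tnf UMI was 6.87 percentage points higher in VISTA-KO CD8 cells, 8.58 in conventional CD4 cells and -1.44 in regulatory cells, and at 4000 UMIs 7.86 in conventional CD4 cells. The co-detection ratio of Ifng and Tnf in VISTA-KO was 1.24 in CD8 cells without thinning and 1.27 in conventional CD4 cells at 4000 UMIs. The causes were not tested. Il21, Csf2 and, in CD8 cells, Il2 were limited by the few cells that held them. Leaving out cells was an alternative chosen after seeing the data where it concerned Mki67 or Top2a or the richest cells.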
